A study of Mus musculus with 6 samples.

Results

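The glutathione and Nrf2 antioxidant genes described here are 45 protein-coding mouse genes. They were chosen by name: the cytosolic and kappa glutathione transferases (Gst), the microsomal transferases (Mgst), the glutathione peroxidases (Gpx), and a fixed set of genes for glutathione synthesis and recycling, thioredoxin, superoxide, hydrogen peroxide, quinones and haem, with the regulators Nfe2l2 and Keap1. Of 54 symbols that fit this rule, 51 were protein-coding and 45 of these had at least 10 counts summed over 6 libraries, out of 54146 genes in the table. All 45 also passed the filter on low counts and were among the 14386 genes tested. The kept gene nearest the limit was Gsto2 with 61 counts. Below the limit were Mgst2 with 6 counts, Gsta1 with 6.03, and Gpx2, Gpx5, Gstm3 and Gstt4 with 0 counts in every library.

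Bulk RNA was sequenced from kidney of 3 groups of mice with 2 libraries each. The G2APOL1 and G0APOL1 groups carry a human APOL1 transgene, in the G2 form, a kidney-risk variant, or in the G0 form, the reference variant, and the WT group carries none. The labels place the letters EC before both transgene names without spelling them out, and the promoter or cell type that drives the transgene is not given in the sources used here. Every mouse, WT included, had 1 kidney removed at an age of 6 weeks and was then kept on chow with 4% salt, and all 6 libraries bear the batch number 1. The age at collection is not stated, and the labels do not say whether the libraries are from different mice, so p-values measure the spread between these libraries. The human transgene was not analysed here.

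Glutathione is a small peptide that carries a reactive thiol. Transferases couple it to electrophiles, peroxidases spend it to reduce hydrogen peroxide and lipid peroxides, and glutathione reductase regenerates it with NADPH. Many of these enzymes are encoded by targets of Nrf2, the product of Nfe2l2, a transcription factor that Keap1 holds for degradation until oxidants or electrophiles modify Keap1. Nrf2 pairs with small Maf proteins on a DNA motif, the antioxidant response element. In the kidney the proximal tubule, rich in mitochondria and peroxisomes, makes much of the plasma glutathione peroxidase Gpx3 and breaks down circulating glutathione.

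The core letters of the antioxidant response element, TGACNNNGC, and a variant, TGAGNNNGC, were looked for in the 250 bases before each RefSeq start (GRCm38.p6), available for 38 of the 45 genes. The variant was added after the sequences had been seen. The stretches below show the variant at 3 genes that passed a test (Osgin1, Gstz1 and Gstp3) and at Gstp2 and Srxn1, which did not, and the core letters at Prdx1 and Gclm, which did not pass edgeR's test. Osgin1, Gstz1 and Gstp3 held only the variant in this window. Each runs 5′ to 3′ on the strand of the gene, with the core letters or the variant in capitals. At Osgin1, Gstz1, Prdx1 and Gclm the motif lies on the opposite strand, so the capitals there show its reverse complement.
Osgin1, chr8:119437028-119437076, plus strand, in an intron of a longer Osgin1 model: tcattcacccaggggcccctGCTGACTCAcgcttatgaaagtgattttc
Gstz1, chr12:87147072-87147120, plus strand, in an intron of the neighbouring gene Pomt2: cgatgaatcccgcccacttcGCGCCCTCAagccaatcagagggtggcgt
Gstp3, chr19:4059571-4059619, minus strand, between genes: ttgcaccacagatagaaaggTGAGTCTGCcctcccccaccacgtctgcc
Gstp2, chr19:4042282-4042330, minus strand, in an intron of a longer Gstp2 model: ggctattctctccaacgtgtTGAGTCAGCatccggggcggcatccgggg
Srxn1, chr2:152105459-152105507, plus strand, between genes: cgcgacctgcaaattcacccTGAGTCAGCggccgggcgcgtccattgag
Prdx1, chr4:116685446-116685494, plus strand, between genes: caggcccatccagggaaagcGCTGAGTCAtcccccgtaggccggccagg
Gclm, chr3:122245403-122245451, plus strand, between genes: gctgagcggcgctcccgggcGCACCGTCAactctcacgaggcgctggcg

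The letters TGACNNNGC, on either strand, stood before 9 of the 38 members (23.7%), against 14.0% of tested genes and 10.2% of all starts in the table. The variant TGAGNNNGC stood before 8 members (21.1%), close to the share of tested genes (18.96%), against 14.4% of all starts. A member can hold both, and 16 members (42.1%) held at least 1 of them, against 29.9% of tested genes. The exact letters TGAGTCAGC, also chosen after the sequences had been seen, stood before Osgin1 (on the opposite strand), Srxn1, Gstp1 and Gstp2, which is 10.5% of the 38 members, against 0.474% of tested genes. With these 250 bases aligned, Gstp1 and Gstp2 were identical in 78.5% of the aligned columns, gaps counted, so their motifs are not separate finds. Among the members that passed edgeR's test, Cat, Gstm1, Gstm2, Gstk1, Gpx7 and Gpx8 held neither motif in this window. Gsr, Hmox1 and Gsta4, which also passed, had no RefSeq start available and were not searched. No searched member that passed edgeR's test held TGACNNNGC.

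The libraries had total counts of 8490396 to 11800932 and between 15894 and 16527 genes with a count. Mitochondrially encoded genes accounted for 12.56% and 14.34% of counts in G2APOL1, 15.5% and 15.92% in G0APOL1, and 14.62% and 21.09% in WT. Correlation of log2 levels between the libraries of a group was 0.958 in G2APOL1, 0.929 in G0APOL1 and 0.913 in WT. All 16 proximal tubule markers were detected in every library, Slc5a12 lowest at 1.49 CPM in WT replicate 1. The 6 fat cell markers set G2APOL1 replicate 2 apart from replicate 1, with summed levels of 27.9 and 225 CPM in G2APOL1, 27.0 and 24.6 in G0APOL1, and 121.5 and 114 in WT. Cfd had 0.343 CPM in G2APOL1 replicate 1 and 105 in replicate 2, and the part of fat in the results was not tested. Results without that library are given beside the calls they change.

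Levels are given as CPM, the count of a gene divided by the library's total on edgeR's TMM scale. Together the 45 genes took 3.67% and 3.50% of all normalised reads in G2APOL1, 3.73% and 3.59% in G0APOL1, and 3.06% and 3.58% in WT. Most of that was Gpx3, which had 24570 and 23940 CPM in G2APOL1, 25660 and 25110 in G0APOL1, and 18800 and 26910 in WT. Divided by exon length, Gpx3 averaged 13380 CPM per kb in G2APOL1, 14000 in G0APOL1 and 12610 in WT, and the cytosolic peroxidase Gpx1 came next in each group at 1617 CPM per kb in G2APOL1, 1524 in G0APOL1 and 1131 in WT. The order below them differed between groups. The lipid peroxide reducer Gpx4 averaged 580 CPM per kb in G2APOL1, 610 in G0APOL1 and 725 in WT, and the mu transferase Gstm1 530 in G2APOL1, 449 in G0APOL1 and 922 in WT, so that Gstm1 stood above Gpx4 in WT alone. Catalase (Cat) averaged 388 CPM per kb in G2APOL1, 385 in G0APOL1 and 186 in WT, where Prdx1, Gstp1, Txn1 and Sod1 stood above it. At the low end over the 6 libraries were Gsto2 at 0.442, Gstm6 at 0.794 and Gpx7 at 1.47 CPM per kb.

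**Figure D1:**
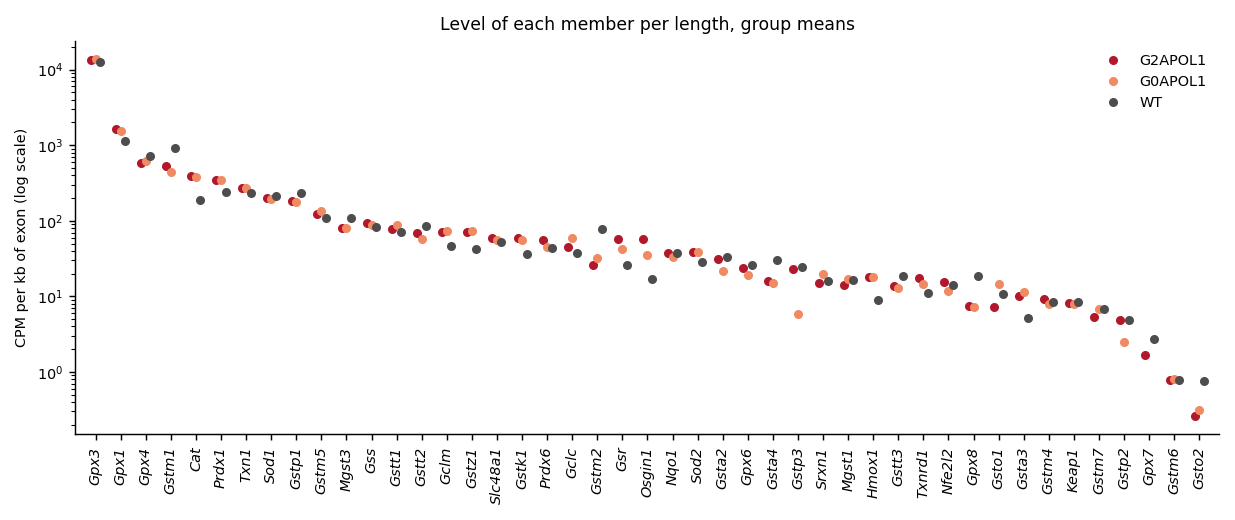
Mean level of each of the 45 genes in each group, in CPM per kb of exon on a log axis, ordered by the mean over 6 libraries. Gpx3 stands about an order of magnitude above Gpx1 in all groups, and Gpx7 in G0APOL1 (0 counts) cannot be drawn on a log axis.

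In G2APOL1 against WT, 8 of the 45 members passed the test (17.8%, against 8.19% of all tested genes), 5 of them higher (11.1%, against 4.57%) and 3 lower (6.67%, against 3.62%). Osgin1, Gsr, Hmox1, Cat and Gstk1 rose, and the transferases Gsta4, Gstm1 and Gstm2 fell. In G0APOL1 against WT, 11 members passed (24.4%, against 8.17% of all tested genes), 5 higher (11.1%, against 4.48%) and 6 lower (13.3%, against 3.68%). Osgin1, Gsr, Hmox1, Cat and Gstz1 rose there, and Gsta4, Gstm1, Gstm2, Gstp3, Gpx7 and Gpx8 fell. DESeq2 called 9 members in G2APOL1 and 14 in G0APOL1 against WT, and limma-voom 13 in G2APOL1 and 12 in G0APOL1. With DESeq2 size factors in place of TMM the G0APOL1 split was 3 higher and 6 lower. Both comparisons use the same WT libraries. Between the transgenes, G2APOL1 against G0APOL1, 1 member passed (2.22%, against 0.480% of all tested genes), and it was Gstp3, higher in G2APOL1 like 0.174% of all tested genes.

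The median member differed little in any comparison: its log2 fold change was -0.01 in G2APOL1 against WT, with -0.04 over all tested genes, 0.04 in G0APOL1 against WT, with 0.02 over all tested genes, and 0.03 in G2APOL1 against G0APOL1, with -0.02 over all tested genes. The groups did not overlap for 29 members in G2APOL1 against WT (64.4%, against 55.2% of all tested genes), for 33 in G0APOL1 against WT (73.3%, against 49.4%) and for 19 in G2APOL1 against G0APOL1 (42.2%, against 39.2%). Counts of members called depended on single libraries. In G2APOL1 against WT they were 3 without either G2APOL1 library and 15 without WT replicate 1. In G0APOL1 against WT they were 4 without G0APOL1 replicate 1 and 6 without G0APOL1 replicate 2 or either G2APOL1 library, and in G2APOL1 against G0APOL1 they were 0 without either G0APOL1 library or G2APOL1 replicate 2, and 2 without either WT library. In fits of the 4 libraries compared, Gsta4, Gstk1 and Gstm1 lost their calls in G2APOL1 against WT (edgeR, adjusted p = 0.0511 to 0.0556), and Gsr, Hmox1, Gsta4, Gstz1 and Gpx8 theirs in G0APOL1 against WT (adjusted p = 0.0813 to 0.127).

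**Figure D2:**
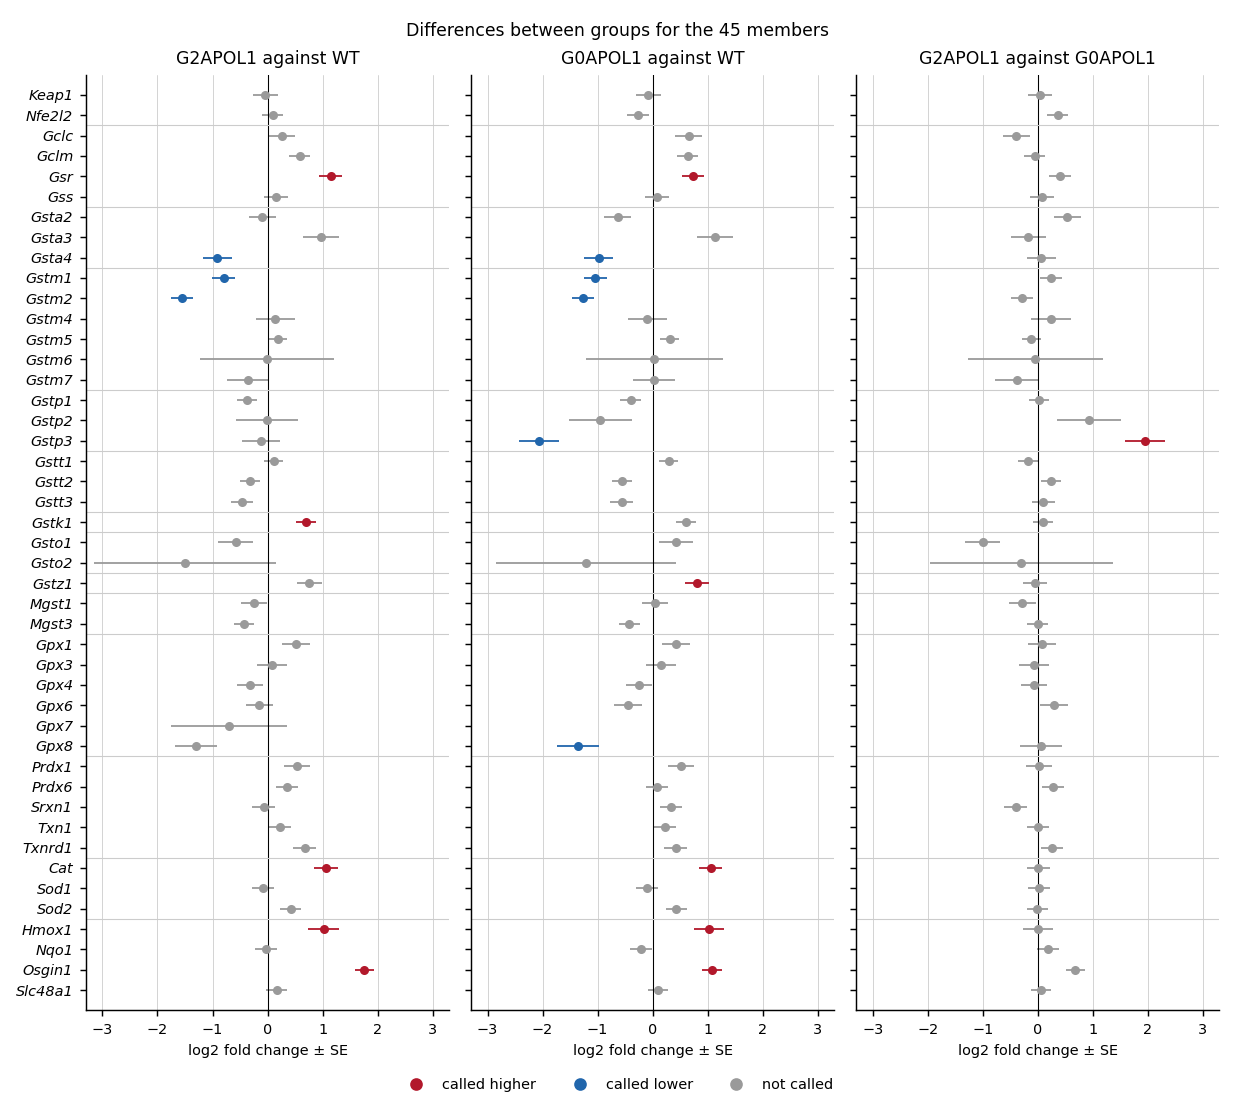
Log2 fold change with its standard error for the 45 genes in the 3 comparisons, ordered by role, with red for called higher, blue for called lower and grey for not called. The called genes lie on both sides of 0, with Osgin1 (1.76) and Gstm2 (-1.56) the farthest among those called in G2APOL1 against WT. Gpx7 is not drawn in the panels with G0APOL1, where it had 0 counts.

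The 2 regulators did not pass in any comparison, and 0 of them did at an unadjusted p under 0.05, with DESeq2 or with limma-voom. Nfe2l2, which encodes Nrf2, had 55.8 and 60.2 CPM in G2APOL1, 44.4 and 45.9 in G0APOL1, and 55.6 and 53.1 in WT. Its log2 fold change was 0.09 ± 0.19 (SE) in G2APOL1 against WT (adjusted p = 0.826) and -0.27 ± 0.19 in G0APOL1 against WT (adjusted p = 0.474). Keap1, its inhibitor, had 43.6 and 33.9 CPM in G2APOL1, 37.0 and 38.3 in G0APOL1, and 41.0 and 38.7 in WT, with log2 fold changes against WT of -0.04 ± 0.22 in G2APOL1 (adjusted p = 0.946) and -0.08 ± 0.22 in G0APOL1 (adjusted p = 0.897). A non-coding gene on the opposite strand covers 10.9% of the Keap1 exons, and its reads cannot be told apart from those of Keap1 where strand is unknown. The same limit holds for Gstm5 (13.9% covered), Gstz1 (9.1%, by Pomt2), Gss (6.7%), Gclm (4.7%) and Slc48a1 (1.1%).

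Of 4 genes for making and recycling glutathione, edgeR called Gsr, which rose against WT with either transgene, and not the other 3, while DESeq2 and limma-voom called Gclm as well in both comparisons. Gsr, the reductase that returns oxidised glutathione to its thiol form, had 158 and 155 CPM in G2APOL1, 128.5 and 107 in G0APOL1, and 82.1 and 59.0 in WT. All 4 transgenic libraries stood above both WT libraries, and G2APOL1 above G0APOL1. The log2 fold change was 1.15 ± 0.20 in G2APOL1 against WT (adjusted p = 0.00466) and 0.74 ± 0.20 in G0APOL1 against WT (adjusted p = 0.0412). The first call held whichever library was left out, with 0.94 to 1.41. The second was lost without any library other than WT replicate 1 (adjusted p = 0.0660 to 0.248) with DESeq2 size factors (adjusted p = 0.0511) and with the 4 libraries compared (adjusted p = 0.127). G2APOL1 against G0APOL1 gave 0.41 ± 0.20 (adjusted p = 0.778).

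Gclm, the modifier subunit of the enzyme that starts glutathione synthesis, had 440 and 441 CPM in G2APOL1, 493 and 421 in G0APOL1, and 325.5 and 263 in WT. Its groups did not overlap against WT, and it missed the threshold with edgeR, at 0.58 ± 0.19 in G2APOL1 (adjusted p = 0.0862) and 0.63 ± 0.19 in G0APOL1 (adjusted p = 0.0626). It passed with DESeq2 (adjusted p = 0.0234 in G2APOL1 and 0.0119 in G0APOL1), with limma-voom (0.0479 in G2APOL1 and 0.0351 in G0APOL1), and with genes of at least 1 count, the replicate block or WT replicate 1 left out. The catalytic subunit Gclc had 162 and 181 CPM in G2APOL1, 291 and 159 in G0APOL1, and 144 and 142 in WT. The G0APOL1 value rests on replicate 1, and neither difference passed edgeR's test (0.27 ± 0.24 in G2APOL1, adjusted p = 0.577, and 0.66 ± 0.24 in G0APOL1, adjusted p = 0.124). Gss, which adds the last amino acid, had log2 fold changes of 0.15 ± 0.22 in G2APOL1 and 0.08 ± 0.22 in G0APOL1, neither past the threshold.

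Among the genes for quinones, haem and oxidative stress, Osgin1 and Hmox1 rose in both transgenic groups and Nqo1 and Slc48a1 did not pass. Osgin1, which encodes an oxidative stress induced growth inhibitor, had 157 and 150 CPM in G2APOL1, 95.4 and 95.3 in G0APOL1, and 44.7 and 45.6 in WT. The 3 groups stood in steps, with little spread inside each. The log2 fold change was 1.76 ± 0.18 in G2APOL1 against WT (adjusted p = 1.3e-04) and 1.08 ± 0.18 in G0APOL1 against WT (adjusted p = 0.00269). Both calls held under every alternative and without any library, with ranges of 1.76 to 1.82 and 1.03 to 1.10 when a library was left out. The step between the transgenes was 0.68 ± 0.17, with an unadjusted p of 0.00166 that did not pass over all genes (adjusted p = 0.178).

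Hmox1, the inducible haem oxygenase that frees iron and carbon monoxide from haem, had 31.6 and 32.5 CPM in G2APOL1, 37.8 and 26.3 in G0APOL1, and 17.8 and 13.7 in WT. All transgenic libraries were above both WT libraries, and the transgenic groups overlapped. Hmox1 rose by 1.02 ± 0.28 in G2APOL1 (adjusted p = 0.0407) and by 1.02 ± 0.28 in G0APOL1 (adjusted p = 0.0408). The G2APOL1 call was lost without WT replicate 2 or either G2APOL1 library, with log2 fold changes of 0.87 to 1.08. The G0APOL1 call was lost without WT replicate 2, G0APOL1 replicate 1 or either G2APOL1 library, with 0.69 to 1.02. Over the same libraries the macrophage markers, cells that take up and degrade haem, were lower: 5 of 8 fell in both comparisons against WT, and their summed level was 128 and 135 CPM in G2APOL1, 139 and 142 in G0APOL1, and 226 and 283 in WT. Of the red cell markers, 4 of 6 fell in G2APOL1 and 3 of 6 in G0APOL1. The part of either cell type in the Hmox1 result was not tested.

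Nqo1, a quinone reductase often used as a marker of Nrf2 activity, had 60.3 and 55.3 CPM in G2APOL1, 46.2 and 55.6 in G0APOL1, and 55.7 and 62.0 in WT. Its libraries lay in a narrow band in all groups. The log2 fold change was -0.03 ± 0.20 in G2APOL1 (adjusted p = 0.962) and -0.21 ± 0.20 in G0APOL1 (adjusted p = 0.616). Slc48a1, a haem transporter of the lysosome, differed from WT by 0.16 ± 0.18 in G2APOL1 (adjusted p = 0.658) and 0.10 ± 0.18 in G0APOL1 (adjusted p = 0.824).

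Of the 3 enzymes that act directly on superoxide and hydrogen peroxide, catalase rose in both transgenic groups. Cat, the peroxisomal enzyme that splits hydrogen peroxide, had 1052 and 977 CPM in G2APOL1, 1115 and 899 in G0APOL1, and 544 and 427 in WT. The lowest transgenic library stood well above the highest WT library. Cat rose by 1.06 ± 0.21 in G2APOL1 (adjusted p = 0.00875) and by 1.05 ± 0.21 in G0APOL1 (adjusted p = 0.00871). The first call was lost without G2APOL1 replicate 1 or 2, with log2 fold changes of 1.04 and 1.14. The second was lost without G0APOL1 replicate 1, at 0.84. Sod1, the cytosolic superoxide dismutase, differed by -0.08 ± 0.20 in G2APOL1 and -0.10 ± 0.20 in G0APOL1. Sod2, its mitochondrial counterpart, had 403 and 367 CPM in G2APOL1, 416 and 359 in G0APOL1, and 308 and 267 in WT, a gap that did not pass (0.42 ± 0.19 in G2APOL1, adjusted p = 0.202, and 0.43 ± 0.19 in G0APOL1, adjusted p = 0.193).

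**Figure D3:**
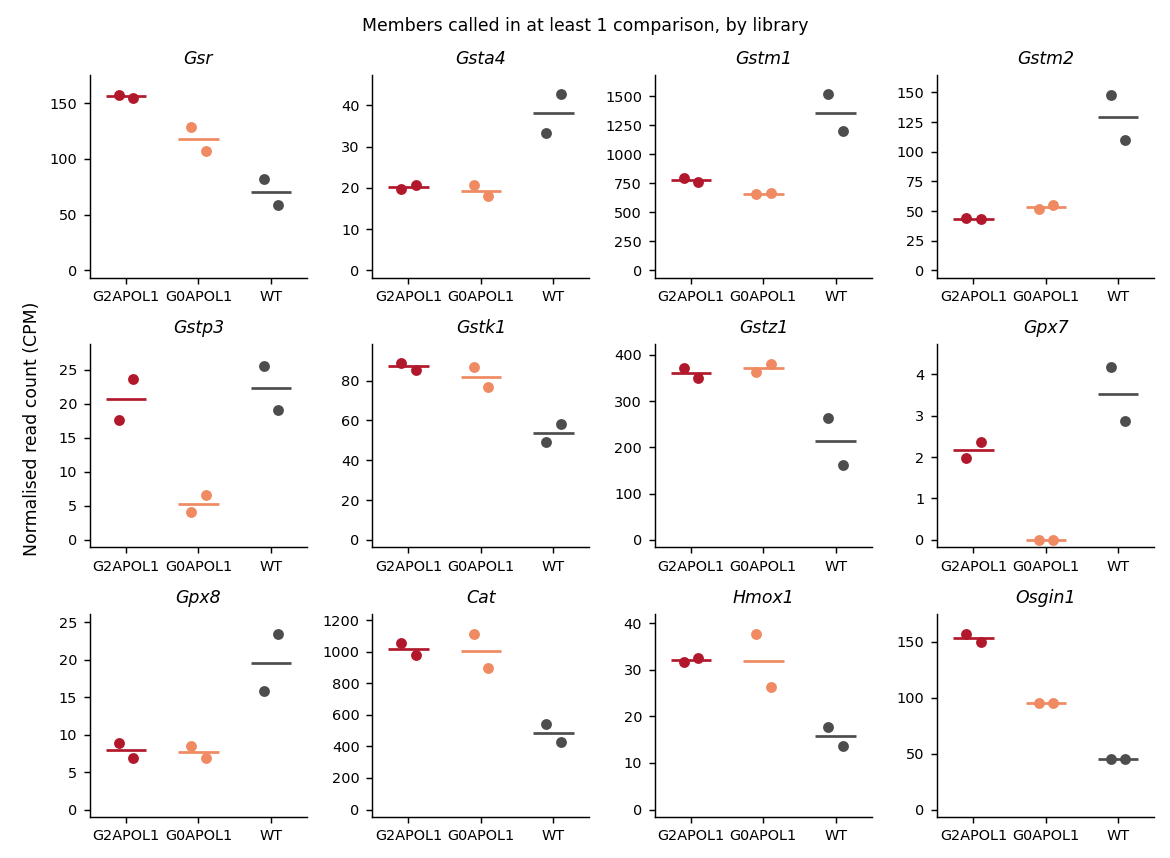
CPM in every library for the 12 members that passed in at least 1 comparison, with G2APOL1, G0APOL1 and WT from left to right, points for libraries and bars for group means. Gsr, Cat, Hmox1, Osgin1, Gstk1 and Gstz1 are higher in the transgenic groups, Gstm1, Gstm2, Gsta4 and Gpx8 higher in WT, and Gstp3 and Gpx7 are low in G0APOL1.

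Of the 21 glutathione transferases, 1 rose and 3 fell in G2APOL1 against WT (4.76% and 14.3%, against 4.57% and 3.62% of all tested genes). In G0APOL1 against WT 1 rose and 4 fell (4.76% and 19.05%, against 4.48% and 3.68%). The share that rose was near that of all genes. Their summed level was 2520 and 2388 CPM in G2APOL1, 2369 and 2282 in G0APOL1, and 3412 and 2840 in WT. Most of that gap was the mu class, which summed to 1041 and 978 CPM in G2APOL1, 912 and 916 in G0APOL1, and 1838 and 1470 in WT. In bulk tissue, fewer cells of a type and less RNA per cell cannot be told apart, and this holds for every level given here.

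The mu transferases lie side by side on chromosome 3 (GRCm38), from Gstm5 at 107895821 to the end of Gstm4 at 108044894, and only 2 of the 6 passed. Gstm1, the most abundant transferase, had 798 and 762 CPM in G2APOL1, 658 and 664 in G0APOL1, and 1517 and 1199 in WT. Gstm2, its neighbour, had 43.8 and 43.5 CPM in G2APOL1, 52.0 and 54.9 in G0APOL1, and 148 and 110.3 in WT. For both genes all 4 transgenic libraries lay below both WT libraries. Gstm1 differed by -0.80 ± 0.20 in G2APOL1 (adjusted p = 0.0285) and by -1.04 ± 0.20 in G0APOL1 (adjusted p = 0.00727). Its G2APOL1 call was lost without G0APOL1 replicate 2 or either G2APOL1 library, with log2 fold changes of -0.80 to -0.74. Its G0APOL1 call was lost without G0APOL1 replicate 2, at -1.03. Gstm2 differed by -1.56 ± 0.20 in G2APOL1 (adjusted p = 7.37e-04) and by -1.27 ± 0.20 in G0APOL1 (adjusted p = 0.00199), and held both calls whichever library was left out.

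The other mu genes showed no such gap. Gstm5 had 168 and 151 CPM in G2APOL1, 179.5 and 167 in G0APOL1, and 146 and 134 in WT, with log2 fold changes of 0.19 ± 0.17 in G2APOL1 (adjusted p = 0.587) and 0.31 ± 0.17 in G0APOL1 (adjusted p = 0.335). Gstm4, Gstm6 and Gstm7 averaged under 20 CPM in each group and had differences between -0.36 and 0.14 against WT, none past the threshold. With the 250 bases before their starts aligned, Gstm1 and Gstm2 were identical in 49.8% of the aligned columns, gaps counted. The share for unrelated genes was not measured.

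In the alpha class Gsta4, which detoxifies the lipid peroxidation product 4-hydroxynonenal, had 19.8 and 20.6 CPM in G2APOL1, 20.6 and 17.98 in G0APOL1, and 33.4 and 42.7 in WT. Both WT libraries stood above all transgenic ones. It fell by 0.91 ± 0.26 in G2APOL1 (adjusted p = 0.0496) and by 0.98 ± 0.26 in G0APOL1 (adjusted p = 0.0376). Either call was lost without any library other than WT replicate 1 (adjusted p = 0.0554 to 0.371 in G2APOL1 and 0.0685 to 0.171 in G0APOL1), both with the 4 libraries compared (adjusted p = 0.0532 in G2APOL1 and 0.0831 in G0APOL1), and the G2APOL1 call also with filters of 10 or 50 counts and with DESeq2 (adjusted p = 0.0502 to 0.0523). Gsta3 leaned the other way, with 42.4 and 44.9 CPM in G2APOL1, 49.96 and 48.4 in G0APOL1, and 31.3 and 13.2 in WT. The WT libraries were far apart, and Gsta3 did not pass edgeR's test (0.97 ± 0.33 in G2APOL1, adjusted p = 0.0932, and 1.14 ± 0.33 in G0APOL1, adjusted p = 0.0514). It passed with limma-voom in G2APOL1 (adjusted p = 0.0326) and G0APOL1 (adjusted p = 0.0153), and with DESeq2 in G0APOL1 alone (adjusted p = 0.0305, against 0.0832 in G2APOL1). Gsta2, whose transcript is 98.6% identical to that of Gsta1 over the shared stretch, differed from WT by -0.10 ± 0.24 in G2APOL1 (adjusted p = 0.864) and -0.63 ± 0.24 in G0APOL1 (adjusted p = 0.140), and its reads may be split with its copies.

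Among the 3 pi transferases on chromosome 19, Gstp3 was low in G0APOL1 alone. It had 17.6 and 23.7 CPM in G2APOL1, 4.06 and 6.62 in G0APOL1, and 25.6 and 19.1 in WT. The G0APOL1 libraries lay below all the others, and the G2APOL1 and WT libraries overlapped. Gstp3 fell by 2.07 ± 0.37 in G0APOL1 against WT (adjusted p = 0.00440), a call that held without any library (-2.44 to -1.80), and differed by -0.12 ± 0.34 in G2APOL1 against WT (adjusted p = 0.888). The difference between the transgenes was 1.95 ± 0.37 in G2APOL1 against G0APOL1 (adjusted p = 0.0364). That call was lost when G0APOL1 replicate 1 or 2 or G2APOL1 replicate 2 was left out (0.133, 0.0832 and 0.259 as adjusted p), and with limma-voom (adjusted p = 0.0595), with the log2 fold change between 1.71 and 2.34 when a library was left out.

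Gstp1, the main pi transferase of the kidney, had 288 and 278 CPM in G2APOL1, 293.5 and 262 in G0APOL1, and 403 and 329 in WT. All transgenic libraries lay below WT, and the difference did not pass (-0.37 ± 0.19 in G2APOL1, adjusted p = 0.262, and -0.40 ± 0.19 in G0APOL1, adjusted p = 0.229). Gstp2 had 2.72 to 6.59 CPM and a transcript 100% identical to Gstp1 over the shared stretch, so its level is uncertain. Gstp3 has no copy of that kind. With the 250 bases before the starts aligned, it was identical to Gstp1 in 50.7% and to Gstp2 in 51.9% of the aligned columns, gaps counted.

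The remaining transferases include Gstk1 and Gstz1, which rose. Gstk1, the kappa enzyme of mitochondria and peroxisomes, had 89.1 and 85.1 CPM in G2APOL1, 86.9 and 76.6 in G0APOL1, and 49.2 and 58.2 in WT. Gstz1, which isomerises maleylacetoacetate in tyrosine breakdown, had 371 and 349 CPM in G2APOL1, 363 and 381 in G0APOL1, and 263.5 and 162 in WT. Both genes had every transgenic library above both WT libraries, and with edgeR each passed in 1 comparison and missed in the other. Gstk1 rose by 0.70 ± 0.19 in G2APOL1 (adjusted p = 0.0381), against 0.61 ± 0.19 in G0APOL1 (adjusted p = 0.0674). Gstz1 rose by 0.80 ± 0.22 in G0APOL1 (adjusted p = 0.0428), against 0.76 ± 0.22 in G2APOL1 (adjusted p = 0.0543), where DESeq2 (adjusted p = 0.0119) and limma-voom (adjusted p = 0.0183) called it. Gstk1 lost its call without WT replicate 1 or either G2APOL1 library, with log2 fold changes of 0.59 to 0.75. Gstz1 lost its call without any library other than WT replicate 1 (adjusted p = 0.0837 to 0.155), stood at 0.50 without WT replicate 2, and lost it with DESeq2 size factors (adjusted p = 0.0527) and with the 4 libraries compared (adjusted p = 0.119).

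The theta class did not pass edgeR's test. Gstt2 was at -0.32 ± 0.19 in G2APOL1 and -0.55 ± 0.19 in G0APOL1 (adjusted p = 0.0935), where DESeq2 called it (adjusted p = 0.0245) and limma-voom did not, and Gstt3 at -0.46 ± 0.21 in G2APOL1 and -0.56 ± 0.21 in G0APOL1. Gsto1, an omega transferase, had 15.1 and 14.0 CPM in G2APOL1, 24.98 and 33.2 in G0APOL1, and 16.3 and 27.1 in WT. Its G2APOL1 libraries lay below both G0APOL1 libraries, at -0.999 ± 0.32 in G2APOL1 against G0APOL1 (unadjusted p = 0.00746, adjusted p = 0.373). Of the microsomal enzymes, Mgst3 was at -0.43 ± 0.18 in G2APOL1 (adjusted p = 0.184) and -0.42 ± 0.18 in G0APOL1 (adjusted p = 0.192) and Mgst1 at -0.24 ± 0.24 in G2APOL1 and 0.04 ± 0.24 in G0APOL1.

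None of the 6 glutathione peroxidases passed edgeR's test in G2APOL1 against WT, where 1 had an unadjusted p under 0.05, 0 passed with DESeq2 and 1 with limma-voom. Gpx7 and Gpx8 fell in G0APOL1 against WT. Both are peroxidases of the endoplasmic reticulum that act in oxidative protein folding. Gpx8 had 8.92 and 6.94 CPM in G2APOL1, 8.43 and 6.86 in G0APOL1, and 15.8 and 23.4 in WT. The transgenic libraries lay below both WT libraries, with -1.30 ± 0.38 in G2APOL1 (adjusted p = 0.0538) and -1.35 ± 0.38 in G0APOL1 (adjusted p = 0.0468). The G0APOL1 call was lost without any library other than WT replicate 1 (adjusted p = 0.0662 to 0.209).

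Gpx7 had 23 and 22 counts in G2APOL1, 0 and 0 in G0APOL1, and 42 and 26 in WT, or 1.97 and 2.35 CPM in G2APOL1, 0 and 0 in G0APOL1, and 4.17 and 2.86 in WT. It was undetected in both G0APOL1 libraries and present in all others. Against a floor of 3 counts over the G0APOL1 group, its level there was at least 21.1-fold lower than in WT (adjusted p = 0.0178) and at least 12.7-fold lower than in G2APOL1 (adjusted p = 0.178 for G2APOL1 against G0APOL1 with edgeR, and 0.0267 with DESeq2). The call against WT was lost without either G0APOL1 library (adjusted p = 0.0530 and 0.0584) and with limma-voom (adjusted p = 0.0952). These bounds cover counting error only.

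The abundant peroxidases did not pass against WT. Gpx3 differed by 0.09 ± 0.27 in G2APOL1 (adjusted p = 0.898) and by 0.15 ± 0.27 in G0APOL1 (adjusted p = 0.820), with its WT libraries on either side of all transgenic ones. Gpx1 had 2488 and 2172 CPM in G2APOL1, 2131 and 2261 in G0APOL1, and 2048 and 1211 in WT, at 0.52 ± 0.26 in G2APOL1 (adjusted p = 0.255) and 0.43 ± 0.25 in G0APOL1 (adjusted p = 0.358). Gpx4 was at -0.32 ± 0.23 in G2APOL1 and -0.25 ± 0.23 in G0APOL1, and shares a near-identical stretch with the pseudogene Gpx4-ps2, which had 4433 counts over all libraries beside 64189 for Gpx4.

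None of the 5 thioredoxin and peroxiredoxin members passed edgeR's test in the 3 comparisons. Against WT, 2 had an unadjusted p under 0.05 in G2APOL1 (Txnrd1 and Prdx1) and 1 in G0APOL1 (Prdx1), 0 passed with DESeq2, and limma-voom called 1 in G2APOL1 and 0 in G0APOL1. Txnrd1, the NADPH-driven reductase of cytosolic thioredoxin, had 124 and 125 CPM in G2APOL1, 120 and 88.3 in G0APOL1, and 87.8 and 68.2 in WT. Its groups did not overlap against WT, with 0.68 ± 0.21 in G2APOL1 (adjusted p = 0.0624) and 0.42 ± 0.21 in G0APOL1 (adjusted p = 0.254). Prdx1, an abundant cytosolic peroxiredoxin, had 1133 and 993 CPM in G2APOL1, 1172 and 916 in G0APOL1, and 875 and 590 in WT, with 0.54 ± 0.23 in G2APOL1 (adjusted p = 0.191) and 0.51 ± 0.23 in G0APOL1 (adjusted p = 0.215). Srxn1, which repairs overoxidised peroxiredoxins, had 39.7 and 45.8 CPM in G2APOL1, 58.4 and 54.8 in G0APOL1, and 41.0 and 48.9 in WT. Its G0APOL1 libraries were the highest, at 0.33 ± 0.21 against WT (adjusted p = 0.388), while G2APOL1 against WT gave -0.07 ± 0.21 (adjusted p = 0.884). Txn1 and Prdx6 differed by 0.22 ± 0.21 and 0.35 ± 0.20 in G2APOL1 and by 0.22 ± 0.21 and 0.07 ± 0.20 in G0APOL1.

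Beyond the members, 9 lists of related redox genes gave 82 tested entries, of which 10 rose and 7 fell in G2APOL1 against WT, 10 rose and 5 fell in G0APOL1 against WT, and 1 fell in G2APOL1 against G0APOL1. That is 12.2% higher and 8.54% lower in G2APOL1, against 4.57% and 3.62% of all tested genes, 12.2% and 6.10% in G0APOL1, against 4.48% and 3.68%, and 1.22% lower between the transgenes, against 0.306%. Among the suppliers of NADPH, Me1, malic enzyme, rose by 1.19 ± 0.22 in G2APOL1 and 0.95 ± 0.22 in G0APOL1, and Pgd of the pentose phosphate pathway by 0.73 ± 0.20 in each. Nnt, the mitochondrial transhydrogenase, fell in the larger of its 2 entries by 0.89 ± 0.21 in G2APOL1 (adjusted p = 0.0194), and was at -0.05 ± 0.20 in G0APOL1. The second entry holds reads in G2APOL1 replicate 2 and G0APOL1 replicate 2 alone. With both entries summed, a fit added after seeing the data, Nnt had 77.8 and 90.8 CPM in G2APOL1, 151 and 153.5 in G0APOL1, and 124 and 143 in WT, at -0.66 ± 0.18 in G2APOL1 (adjusted p = 0.0402) and 0.19 ± 0.18 in G0APOL1 (adjusted p = 0.615). Of 13 other detoxification genes linked to Nrf2, the export pump Abcc2 rose by 1.33 ± 0.19 in G2APOL1 and 2.23 ± 0.20 in G0APOL1. The pump Abcc4 fell by 1.14 ± 0.27 in G2APOL1 and 1.96 ± 0.28 in G0APOL1, and the epoxide hydrolase Ephx1 by 0.91 ± 0.22 in G2APOL1 and 1.43 ± 0.22 in G0APOL1. Of 8 partners and regulators of Nrf2, 0 passed against WT, with 3 at an unadjusted p under 0.05 in G2APOL1 and 2 in G0APOL1, and 0 with DESeq2 or limma-voom. Of 11 genes of glutathione turnover and transport, 0 passed against WT, with 5 at an unadjusted p under 0.05 in G2APOL1 and 4 in G0APOL1. DESeq2 called 2 of these 11 in G2APOL1 and 1 in G0APOL1, and limma-voom 2 in G2APOL1 and 0 in G0APOL1.

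In the wider thioredoxin list of 11, the mitochondrial peroxiredoxin Prdx3 rose by 0.82 ± 0.18 in G2APOL1 and 1.01 ± 0.18 in G0APOL1. The methionine sulfoxide reductases Msra and Msrb2 rose by 0.93 ± 0.21 and 1.05 ± 0.29 in G2APOL1, and by 0.98 ± 0.21 and 1.08 ± 0.29 in G0APOL1. Txnip, an inhibitor of thioredoxin that was singled out after its values were seen, had 91.6 and 109 CPM in G2APOL1, 225.5 and 399 in G0APOL1, and 165 and 225 in WT. It fell by 0.95 ± 0.26 in G2APOL1 against WT (adjusted p = 0.0434) and by 1.64 ± 0.27 in G2APOL1 against G0APOL1 (adjusted p = 0.0171). Glutaredoxin (Glrx) fell by 0.89 ± 0.19 in G2APOL1 and was at -0.02 ± 0.18 in G0APOL1.

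Of 8 genes of cysteine and methionine supply, Ahcy rose by 0.79 ± 0.21 in G2APOL1, and Bhmt (3.09 ± 0.69, from under 2 CPM in WT) and Mat2a (0.81 ± 0.21, named after its values were seen) rose in G0APOL1. Limma-voom did not call Bhmt there. With edgeR, Bhmt was at 1.97 ± 0.68 in G2APOL1 (adjusted p = 0.0965) and Mat2a at 0.24 ± 0.21 (adjusted p = 0.543). Ahcy was at 0.37 ± 0.21 in G0APOL1 (adjusted p = 0.342). Among 10 oxidant sources the NADPH oxidase Nox4 rose by 1.58 ± 0.19 in G2APOL1 and 1.69 ± 0.19 in G0APOL1, and the peroxisomal oxidase Hao2 by 1.504 ± 0.27 in G2APOL1 and 0.95 ± 0.27 in G0APOL1. Dao, a further peroxisomal oxidase, rose by 1.03 ± 0.20 in G2APOL1 and was at 0.71 ± 0.20 in G0APOL1 (adjusted p = 0.0501). Aox3, named after its values were seen, had 0 counts in both G0APOL1 libraries, at least 22.6-fold lower than in WT (edgeR, adjusted p = 0.0282). Limma-voom did not call it. It had 0.429 and 1.28 CPM in G2APOL1 and 3.37 and 4.285 in WT, at -2.16 ± 1.26 in G2APOL1 against WT (edgeR, adjusted p = 0.346). Its difference between the transgenes did not pass (edgeR, adjusted p = 0.502). The copper oxidase Cp and the metallothionein Mt1 fell by 1.48 ± 0.24 and 1.28 ± 0.25 in G2APOL1 and by 1.10 ± 0.23 and 1.03 ± 0.25 in G0APOL1, with Mt1 at -0.77 in G2APOL1 and -0.54 in G0APOL1 without WT replicate 2.

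Of these 17 list calls in G2APOL1, 4 (Me1, Abcc2, Nox4 and Hao2) held whichever library was left out, and the other 13 were lost without 1 or both G2APOL1 libraries. Of the 15 in G0APOL1, 5 (Abcc2, Abcc4, Ephx1, Prdx3 and Nox4) held, and the other 10 were lost at least without G0APOL1 replicate 1. Hao2 in G0APOL1 ranged from 0.53 to 1.54 over the libraries left out, and the Txnip difference between the transgenes from -1.92 to -1.17, with adjusted p up to 0.136.

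**Figure D4:**
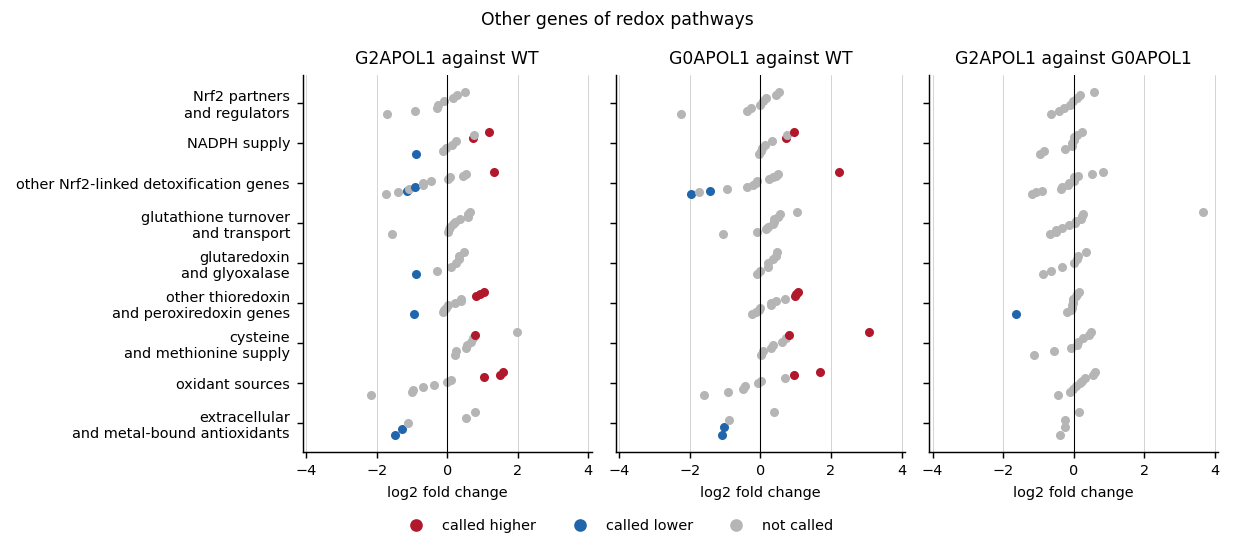
Log2 fold change of other redox genes by list in the 3 comparisons, with red for called higher, blue for called lower and grey for not called. The called genes of the oxidant source and thioredoxin lists lie mostly right of 0 and those of the metal-bound antioxidants left of 0 in both comparisons against WT. Entries beyond 4 on either side are not drawn (2, 4 and 2 in the panels from left to right).

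Markers of some cell types moved in the same comparisons as the members. Over all tested genes, 4.57% rose and 3.62% fell in G2APOL1 against WT, and 4.48% rose and 3.68% fell in G0APOL1 against WT. Of 6 podocyte markers and 3 tested lymphocyte markers, 0 passed against WT. Among 5 intercalated cell markers, 1 rose and 1 fell in each transgenic group. Of 16 proximal tubule markers, 12 rose in G2APOL1 and the same number in G0APOL1 against WT, with medians of 1.19 and 1.01, and none fell. All 16 markers summed to 55990 and 51220 CPM in G2APOL1, 54300 and 45330 in G0APOL1, and 52980 and 32940 in WT, so both transgenic groups overlapped WT. Most of that sum was the androgen-dependent gene Kap, which differed from WT by 0.05 ± 0.31 in G2APOL1 and -0.08 ± 0.31 in G0APOL1. Without Kap, the markers summed to 17680 and 17600 CPM in G2APOL1, 18260 and 15830 in G0APOL1, and 9515 and 7141 in WT. Cat, Gsr, Gstk1, Gstz1, Osgin1 and Hmox1, the members that rose, stood like the sum without Kap above both WT libraries in all 4 transgenic libraries. Of 8 endothelial markers, 6 fell in either transgenic group (summed level 307 and 310 CPM in G2APOL1, 271 and 240 in G0APOL1, and 604 and 656 in WT), as did 4 of 8 markers of fibroblasts and smooth muscle and 4 of 6 of the urothelium. Of 6 principal cell markers, 2 fell in G2APOL1 and 3 in G0APOL1. The lower members Gstm1, Gstm2, Gsta4 and Gpx8 were low in the same 4 libraries as those markers. Both sets of members were picked by their calls against WT, so this shared order was largely fixed by that choice. In either direction, groups did not overlap for 55.2% of all tested genes in G2APOL1 against WT and 49.4% in G0APOL1 against WT. Of 5 distal convoluted tubule markers, 2 rose in G2APOL1 and 3 in G0APOL1 (summed level 552 and 513 CPM in G2APOL1, 881 and 1241 in G0APOL1, and 223.5 and 351 in WT), and 1 of 5 thick ascending limb markers, Egf, rose in G0APOL1. Between G2APOL1 and G0APOL1, Egf (-1.20 ± 0.19, adjusted p = 0.0142) and the distal tubule marker Calb1 (-0.98 ± 0.20, adjusted p = 0.0455) fell. Both are named after their values were seen. The defining adrenal genes Cyp11a1, Cyp11b1, Cyp11b2 and Cyp21a1 were at 0 counts in all 6 libraries. The part of cell type composition in the members' differences was not tested.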

How the data were processed

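The authors deposited 1 table of expected counts, which are estimated numbers of reads assigned to each gene, for 6 kidney libraries, with 1.39% to 1.55% of genes per library at a value that is not whole. Per the labels, 10 mg of tissue was used per library. Build mm10 and Cell Ranger ARC 2.0.2 are named in the submitters' processing notes without a role, with aligner, counter and strand setting not given in the sources used here. Of 54146 identifiers, 54079 matched GENCODE M21 (GRCm38), which gave symbols, gene type and positions.

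Expected counts were rounded to whole numbers, filtered with filterByExpr by group (14386 genes left), scaled with TMM and fitted in 1 model of 6 libraries and 3 groups (edgeR 4.0.16, R 4.3.3, robust glmQLFit, 3 residual degrees of freedom). Each comparison used edgeR's two-sided quasi-likelihood F test with Benjamini-Hochberg adjustment over all tested genes and a threshold of 0.05. A standard error is the log2 fold change divided by the square root of F. The fit was tested on simulated data with 100 genes changed 2-fold and 100 changed 4-fold in each comparison. It called 15% to 17% of the 2-fold and 64% to 65% of the 4-fold changes, with 6 to 15 unchanged genes called. Many changes of 2-fold were therefore missed in that setting. The simulation changed 200 of 14386 genes, whereas 1178 and 1175 were called in G2APOL1 and G0APOL1 against WT. Its adjusted threshold was therefore stricter than in those 2 comparisons, and its shares do not carry over to them. How many changes of 2-fold were missed there was not tested. Total counts of 8490396 to 11800932 limit the precision for genes of few counts. Where both libraries of a group had 0 counts, a floor of 3 counts was used for the pair.

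Alternatives were other scaling, filters of 1, 10 and 50 counts, DESeq2 1.42.0, limma-voom (limma 3.58.1), fits of the 4 libraries compared, the replicate number as a block, counts without mitochondrial genes, near-identical copies summed, and each library left out, and the sum of both Nnt entries, added after seeing the data. Leaving 1 library in a group assumes that it varies like the other groups. Near-identical copies were found with minimap2 2.31 (identity of at least 95% over at least 50% of the longer transcript). Level per kb uses the union of exons. The members, gene lists and marker lists were chosen with earlier results of these data known. Full statistics were given to members that passed in at least 1 comparison and to Nfe2l2, Keap1, Nqo1, Hmox1, Gclc, Gclm, Gsr, Txnrd1, Srxn1, Gpx3 and Cat whatever the result, and up to 3 genes of each redox list by the smallest p in G2APOL1 against WT could be named. A named gene outside this rule is marked in the text.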

Additional observations from a re-analysis of the deposited data

Results flagged for a closer look

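Gstp3 differed between the transgenes by the test of the difference itself, at 1.95 ± 0.37 on the log2 scale in G2APOL1 against G0APOL1 (edgeR, adjusted p = 0.0364). The call was lost without either G0APOL1 library or G2APOL1 replicate 2 (adjusted p = 0.0832 to 0.259) and with limma-voom (adjusted p = 0.0595). The G2APOL1 libraries had 17.6 and 23.7 CPM, the G0APOL1 libraries 4.06 and 6.62 and the WT libraries 25.6 and 19.1.

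Txnip, a gene of the wider thioredoxin list, differed between the transgenes by the same test, at -1.64 ± 0.27 (adjusted p = 0.0171), with 91.6 and 109 CPM in G2APOL1, 225.5 and 399 in G0APOL1, and 165 and 225 in WT. The call was lost when WT replicate 1, G0APOL1 replicate 2 or either G2APOL1 library was left out, with an adjusted p of up to 0.136. It was singled out after its values were seen.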

How the results depend on the processing

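Among the members, 8 were called in G2APOL1 against WT. That count became 13 with genes of at least 1 count, 13 with limma-voom, 5 with the 4 libraries compared and 14 with the replicate block, and 3 to 15 when a library was left out. The 11 of G0APOL1 against WT became 6 with the 4 libraries compared and 4 to 15 when a library was left out, with 16 under the replicate block. The 1 of G2APOL1 against G0APOL1 became 2 with genes of at least 1 count, DESeq2 or the 4 libraries compared, 0 with limma-voom, and 0 to 2 when a library was left out. Over all genes, 1178 calls in G2APOL1 against WT became 1806 with genes of at least 1 count and 338 to 1835 when a library was left out. The 1175 of G0APOL1 against WT became 658 with the 4 libraries compared and 599 to 1721 when a library was left out. The 69 of G2APOL1 against G0APOL1 became 245 with genes of at least 1 count, 134 with DESeq2, 119 with the 4 libraries compared, 120 with the replicate block, and 27 to 150 when a library was left out. The cause of these shifts was not tested.

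The labels do not say whether the replicate numbers pair the samples, and the values below do not settle it. Deviations of libraries with the same number correlated at 0.0578 between WT and G2APOL1, 0.0956 between WT and G0APOL1 and 0.0426 between G0APOL1 and G2APOL1. The replicate block raised all genes called from 1178 to 1724 in G2APOL1 against WT and from 1175 to 1618 in G0APOL1 against WT.

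Signs turned in values that had not passed, and the cause was not tested. Over the libraries left out, G2APOL1 against WT ran from -0.14 to 0.38 for Gpx3, -0.091 to 0.068 for Nqo1, -0.20 to 0.15 for Keap1 and -0.19 to 0.073 for Srxn1. G0APOL1 against WT ran from -0.079 to 0.44 for Gpx3, -0.37 to 0.19 for Nnt and -0.18 to 0.10 for Glrx. G2APOL1 against G0APOL1 ran from -0.080 to 0.025 for Gpx3, -0.76 to 0.18 for Gclc, -0.16 to 0.14 for Gclm, -0.24 to 0.36 for Hmox1, -0.11 to 0.24 for Keap1 and -0.13 to 0.25 for Cat. With both Nnt entries summed, Nnt in G0APOL1 against WT was 0.19. Hmox1 in G2APOL1 against G0APOL1 was 5.0e-04, and -0.00176 with the 4 libraries compared. With the longest transcript as length, 9 of the 10 members with the highest level per kb were shared. No called member changed sign under the alternatives run. With 2 libraries a group, a difference that missed the threshold is not shown to be absent, and at 61 to 113 counts in all libraries, Gsto2, Gstm6 and Gpx7 had standard errors over 1.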

Other observations

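Nnt, the mitochondrial transhydrogenase that supplies NADPH to glutathione reductase, has 2 overlapping entries on mouse chromosome 13 (GRCm38) in the count table, at 119335448 to 119408997 and at 119335528 to 119408952. The second entry had 228.89 counts in G2APOL1 replicate 2 and 395.37 in G0APOL1 replicate 2, which is 26.9% and 30.5% of the counts of both entries, and 0 counts in the other 4 libraries.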
